A study of Homo sapiens with 6 samples.

Results

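The genes described here are 41 interferon response genes, a set that holds 1 STAT, 5 interferon regulatory factors (IRFs), the cytoplasmic RNA sensors and the antiviral effector genes. They were found by symbol among the 54308 genes of an RNA sequencing table of the human osteosarcoma line 143B, and all 41 were listed. Osteosarcoma is a cancer of bone-forming cells. CNTNAP4 codes for a neurexin-family surface protein that serves as a receptor for the secreted factor NELL-1. The comparison asked which transcripts differed after the CNTNAP4 gene had been deleted.

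The vector control group (VC, 3 libraries) had the control genotype, and the knockout group (KO, 3 libraries) carried a CRISPR/Cas9 deletion. Both received a transient plasmid transfection, given as 48 h in the labels, and both were grown in the same serum-containing medium without any added interferon being stated. The paper's methods give a longer incubation with the plasmid, after which transfected cells of both groups were sorted into wells. RNA is described there as taken from clonal cells with or without the knockout. Which colony each library came from is not stated, so differences between clones cannot be told apart from differences due to the deletion. The targeted gene was seen in a single library, VC replicate 3, at -7.18 on the log2 scale. Each library had values for 20333 to 21041 genes and for 37 to 41 of the 41 interferon genes. Read counts behind the values are not known. All 8 mesenchymal or osteoblastic markers had values, and their summed linear signal was 1508 to 1680 in VC and 1808 to 2230 in KO. VIM made up most of that sum, at a mean log2 signal of 10.44 in VC, and was not called in limma (adjusted p = 0.0667). COL1A2 and THY1 had mean VC signals of only -4.81 and -4.97. At an adjusted p under 0.05 in limma, 3 (COL1A1, SPARC and FN1) were higher in KO and 1 (COL1A2) lower (50% called, against 32.9% of all genes tested). The 7 epithelial and endothelial markers summed to 577 to 640 in VC and 553 to 609 in KO, with KRT8 higher and EPCAM lower. KRT18 and KRT8 made up most of this sum, at mean VC signals of 9.01 and 6.61. The endothelial genes PECAM1, VWF and CDH5 lay at -5.49, -6.75 and -7.86 in VC, and CDH1 had a value in 1 library. Of 10 immune cell markers listed, 3 had no value in any library and the summed linear signal was 0.249 to 0.269 in VC and 0.181 to 0.245 in KO, while the 1 marker called among the 4 tested was higher in KO (log2 2.16, adjusted p = 0.00571). In a bulk sample, fewer cells that express a gene and less RNA per cell cannot be told apart.

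Interferons are secreted proteins that cells release when they sense viral nucleic acid. Type I and type III interferons act through receptors that carry JAK-family kinases, and the kinases activate a complex of STAT proteins with IRF9 that binds the interferon-stimulated response element (ISRE) in the promoters of its targets. Type II interferon acts through STAT homodimers that bind the gamma-activated site (GAS). The target genes degrade viral RNA, block viral translation and entry, and raise the level of the sensors and transcription factors themselves, so many of them rise together when interferon is added.

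RefSeq promoters (GRCh38.p14, 250 bases before to 50 bases after the transcription start) were at hand for 30 of the 41 genes. The ISRE core GAAANNGAAA, searched on both strands, was present in 19 of the 30 (63.3%) and in 996 of 27305 promoters of all genes (3.65%). A spacing variant with a single base between the repeats, GAAANGAAA, was searched after the promoters had been inspected, and it was present in 10 of the 30 (33.3%) against 3.22% of all promoters. One or the other was present in 24 of the 30 (80.0%) and in 6.55% of all promoters. Both were present in 5 of the 30, and in 4 of these the matches overlapped. The GAS core TTCNNNGAA was present in 8 of the 30 (26.7%) against 7.88%, and its matches could overlap the other cores. Of the 19 genes with an ISRE core, 1 was higher in KO (ISG20), 1 was lower (IFITM3) and 17 did not pass the test described below. Over all genes in that test 13.1% were higher and 19.8% lower. The presence of a core describes the letters in the window and not a bound site.

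The 200 bases before the start are shown for the called genes whose promoter held a core of either spacing, and for IFIT1, whose fold change was of similar size to that of OAS1. They stand side by side here because genes that moved up and genes that moved down carried these letters. Each is written on the strand of its gene, and capitals mark a match to either core on either strand. They lie at chr15:88638816-88639015 on the plus strand (ISG20), chr17:43006584-43006783 on the plus strand (IFI35), chr12:112906762-112906961 on the plus strand (OAS1), chr10:89392423-89392622 on the plus strand (IFIT1) and chr11:320861-321060 on the minus strand (IFITM3).
ISG20: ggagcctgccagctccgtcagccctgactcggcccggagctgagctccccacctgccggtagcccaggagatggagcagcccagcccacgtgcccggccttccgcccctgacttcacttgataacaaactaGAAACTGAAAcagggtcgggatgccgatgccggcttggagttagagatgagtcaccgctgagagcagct
IFI35: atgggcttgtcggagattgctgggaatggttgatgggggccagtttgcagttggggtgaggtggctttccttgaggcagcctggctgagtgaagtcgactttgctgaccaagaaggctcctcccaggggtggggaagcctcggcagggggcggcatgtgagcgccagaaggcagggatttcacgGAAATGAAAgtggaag
OAS1: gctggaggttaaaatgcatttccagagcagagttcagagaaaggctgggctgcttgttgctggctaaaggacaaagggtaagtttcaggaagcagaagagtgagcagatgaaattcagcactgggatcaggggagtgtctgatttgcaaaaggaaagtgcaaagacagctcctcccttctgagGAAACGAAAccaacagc
IFIT1: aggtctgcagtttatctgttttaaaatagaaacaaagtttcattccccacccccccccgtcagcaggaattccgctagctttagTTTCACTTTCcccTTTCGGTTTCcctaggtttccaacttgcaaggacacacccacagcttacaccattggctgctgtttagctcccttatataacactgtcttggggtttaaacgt
IFITM3: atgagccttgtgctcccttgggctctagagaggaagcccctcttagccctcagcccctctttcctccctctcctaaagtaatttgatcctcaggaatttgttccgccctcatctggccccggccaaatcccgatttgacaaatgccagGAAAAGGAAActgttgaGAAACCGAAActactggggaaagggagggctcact
The ISG20 core began 69 bases before the start, and the cores of IFI35 and OAS1, both with the single-base spacing, began 16 and 17 bases before it. IFITM3 held 2 ISRE cores, at 52 and 35 bases before the start. IFIT1 held 2 on the opposite strand, at 116 and 103 bases. These genes were chosen for holding a core. The called genes STAT2 and IFI16, both higher in KO, had promoters that held neither core, and IRF3 and IRF7 were not matched to a promoter.

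Levels of the 41 genes spanned almost the whole range of the measured transcriptome. The deposited values are log2 signals that had been quantile-normalized between libraries. Among 1264 genes of known transcript length with a value in a single library, the value fell by 0.93 per log2 unit of length (r = -0.80 across genes, which are not independent replicates), so the scale was close to one per length and genes are ranked on it. IFITM3 was highest, with a mean log2 signal of 7.68, above 98.9% of genes, and IFITM2 was next at 6.25 (96.6%). Both are membrane proteins that block the entry of viruses into the cytoplasm. IFI16, a nuclear DNA sensor, PLSCR1, a phospholipid scramblase, and IRF3, the factor that turns on the interferon beta gene, followed at 4.12, 4.06 and 3.99. ISG15, the ubiquitin-like protein that is attached to other proteins after interferon treatment, stood at 3.31, above 75.0% of genes.

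At the other end, 8 genes lay below -5.5, and 6 of these lacked a value in at least 1 library. XAF1 (-8.41), OAS2 (-8.12), IFI44L (-7.70), RSAD2 (-7.17), TRIM22 (-7.09) and BST2 (-5.61) were within 0.40 log2 units of, or below, the level that genes with a value in a single library had at the same transcript length. DHX58 stood 0.80 and MX2 1.71 log2 units above that level. Several of these, such as RSAD2 (viperin), MX2 and OAS2, are among the genes that interferon is best known to induce. The 5 lowest in the order did not separate from their neighbours, since the library values of each overlapped those of the next.

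**Figure D1:**
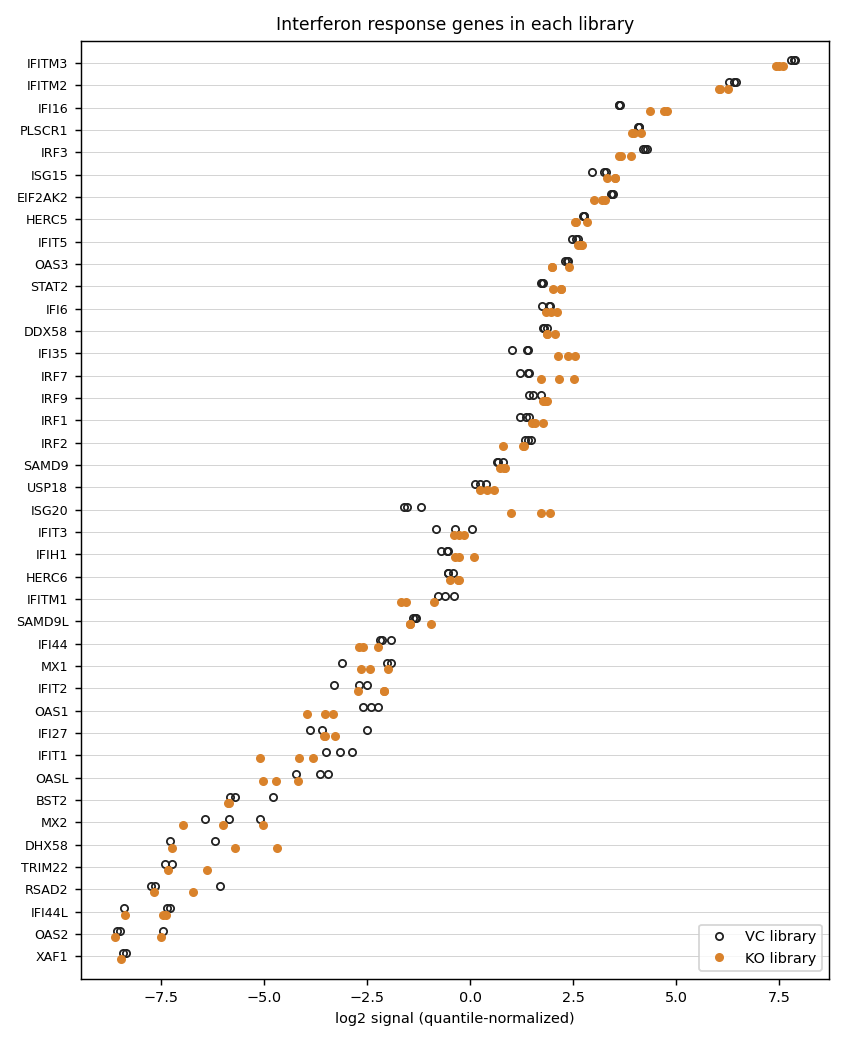
Deposited log2 signal (horizontal axis) of each of the 41 interferon response genes in every library, ordered by mean, with open circles for the 3 VC libraries and filled circles for the 3 KO libraries. IFITM3 lies highest at about 7.68 and XAF1 lowest at about -8.41, and the groups stand widest apart for ISG20, at -1.45 in VC and 1.56 in KO.

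Between KO and VC the interferon genes moved in both directions, and most did not pass the test. A moderated test in limma was fitted to the 19306 genes for which both groups held at least 2 values, and its p-values were adjusted over all of them by Benjamini-Hochberg. Of the 40 interferon genes tested, 8 passed an adjusted p of 0.05 (20%), a smaller share than the 32.9% of all genes tested. ISG20, IFI16, IFI35, IRF7 and STAT2 were higher in KO (12.5%, background 13.1%), and OAS1, IRF3 and IFITM3 were lower (7.5%, background 19.8%). At an unadjusted p under 0.05 the count was 17 of 40 (42.5%), against 47.9% of all genes. The median log2 fold change was 0.079 over the 40 genes and -0.13 over all genes tested, and the former turned to -0.011 without VC replicate 3 and to -0.047 without KO replicate 1. Fold changes were positive for 21 genes and negative for 19.

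The split of the calls depended on the scaling. With each library centred on its median over genes with all 6 values, 8 interferon genes were higher and 3 lower. All genes were then 3005 higher and 3233 lower, against 2526 and 3828 as deposited. With 1 added to the linear signal 6 interferon genes were higher and 6 lower (all genes, 2988 and 4785). The 8 genes called on the deposited scale were called with the same sign under both. The sizes were not kept, since with 1 added the log2 fold change of OAS1 was -0.13 in place of -1.18. That of ISG20 was 1.54 in place of 3.00. Of the 35 interferon genes with a value in all 6 libraries, 19 had groups that did not overlap (54.3%), against 59.3% of all such genes. KO lay above VC in 10 of these and below it in 9.

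**Figure D2:**
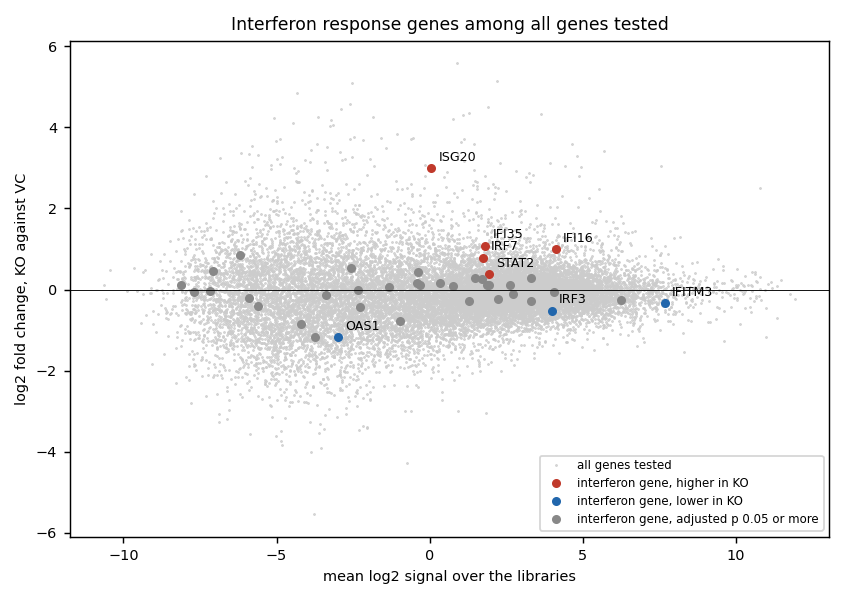
Log2 fold change of KO against VC (vertical axis) against mean log2 signal (horizontal axis) for 19306 genes tested, with the 40 interferon response genes drawn large. The 5 higher and 3 lower genes are labelled, ISG20 stands apart at 3.00, and the other interferon genes lie among the bulk of grey points.

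**Figure D3:**
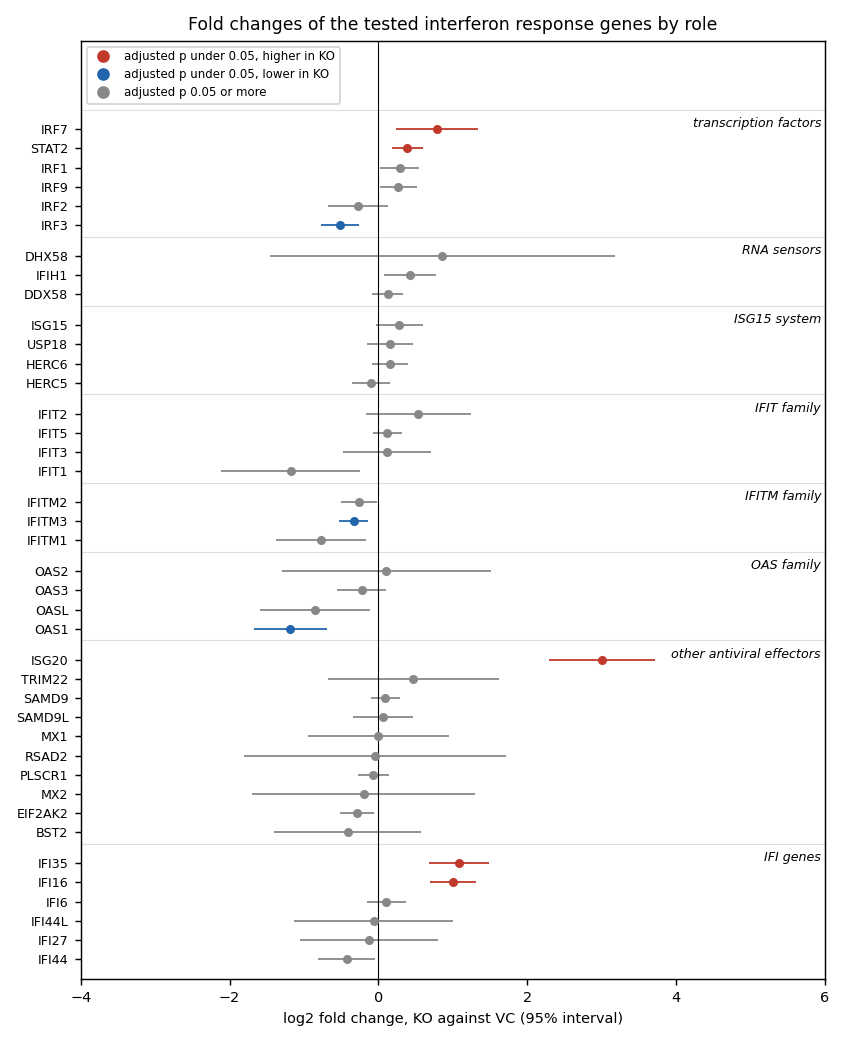
Log2 fold change of KO against VC with its 95% interval (horizontal axis) for the 40 tested interferon response genes, grouped by role. Red marks the 5 genes higher and blue the 3 genes lower in KO at an adjusted p under 0.05, and all roles except the RNA sensors, the ISG15 system and the IFIT family hold at least 1 of them.

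The transcription factors held 3 of the 8 calls among 6 genes (50%), in both directions. This share and those of the other role groups below stand beside 32.9% of all genes tested, and no role group was tested as a set. All 6 factors lay in the upper 50% of mean signal, where a separate limma fit called 59.1% of all genes. The 32.9% is therefore not matched to their level. STAT2, the STAT that joins IRF9 in the ISRE-binding complex, was 1.77, 1.72 and 1.75 in VC and 2.0, 2.21 and 2.20 in KO. Every KO library was above every VC library, and the difference was 0.39 (SE 0.084), a 1.31-fold higher signal with an adjusted p of 0.0256. IRF7, which amplifies the type I response, was 1.41, 1.20 and 1.42 in VC and 1.72, 2.52 and 2.15 in KO. The KO libraries again all lay above VC but were spread over a wider range, and the mean rose from 1.34 ± 0.12 to 2.13 ± 0.40 (SD, n = 3), 1.73-fold (log2 0.79, SE 0.22, adjusted p = 0.0445). IRF3, which acts before any interferon has been made, moved the other way, from 4.30, 4.20 and 4.24 in VC to 3.90, 3.61 and 3.67 in KO. No KO value reached the VC range, and the signal was 1.43-fold lower (log2 -0.52, SE 0.10, adjusted p = 0.0206).

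The other 3 factors did not pass. IRF1 differed by 0.28 and IRF9 by 0.27, with adjusted p-values of 0.0854 and 0.0867, and KO lay above VC for both. IRF2, which competes with IRF1 for its sites, differed by -0.27 (adjusted p = 0.234), with KO replicate 2 at 0.79 and the other KO libraries at 1.29 and 1.31. IRF1 (adjusted p = 0.0279) and IRF9 (0.0414) did pass once libraries were centred on their medians. Both also passed in a limma fit of the upper 50% of mean signal (0.0311 and 0.0321), where 59.1% of all genes passed. IRF9 passed with 1 added to the linear signal too (0.0492). The calls on STAT2 and IRF7 were kept only when KO replicate 1 was the library left out, with highest adjusted p-values of 0.0860 and 0.116 among the other fits. IRF3 kept its call without KO replicate 1 or KO replicate 2, and its adjusted p was 0.0567 to 0.0748 without any of the others. Every 50-base stretch of the longest protein-coding IRF9 transcript is also found in a readthrough transcript annotated on the same chromosome, and how the counting divided such reads is not stated.

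Among the RNA sensors no gene passed, with 0 of 3 called by limma and IFIH1 alone under 0.05 before adjustment. IFIH1 (MDA5), which binds long double-stranded RNA, was -0.54, -0.57 and -0.71 in VC and 0.09, -0.36 and -0.27 in KO. The KO libraries lay above VC, with a difference of 0.42 and an adjusted p of 0.0673 (0.0310 after the same centring). DDX58 (RIG-I), which binds RNA with an uncapped end, differed by 0.12 (adjusted p = 0.299). DHX58 (LGP2), the regulator that lacks the signalling domains, had a value in only 2 VC libraries and stood near the lowest levels measured, with a difference of 0.86 (adjusted p = 0.480).

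The ISG15 system, too, held no call among 4 genes, and none was under 0.05 before adjustment. ISG15 was 3.26, 2.95 and 3.30 in VC and 3.52, 3.51 and 3.32 in KO. The groups did not overlap, though VC replicate 3 and KO replicate 3 almost touched, and the difference was 0.28 with an adjusted p of 0.137. HERC5, the ligase that attaches ISG15, differed by -0.10, its paralog HERC6 by 0.16, and USP18, the protease that removes ISG15 and restrains the type I receptor, by 0.16, with adjusted p-values of 0.250 to 0.479 and overlapping groups. USP18 shared 23.4% of its 50-base stretches with transcripts of other genes, and its 10 neighbours on chromosome 22 had a median log2 fold change of 0.34.

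The gene with the largest change among the 40 was ISG20, a 3′ to 5′ exonuclease that degrades single-stranded RNA. It was -1.54, -1.61 and -1.20 in VC and 0.99, 1.95 and 1.73 in KO. The groups were far apart, with the lowest KO library more than 2 log2 units above the highest VC library, and the mean rose from -1.45 ± 0.22 to 1.56 ± 0.51. This was an 8.02-fold higher signal (log2 3.00, 95% interval 2.30 to 3.71, adjusted p = 0.00789). The call was kept with any 1 of the 6 libraries left out, at a highest adjusted p of 0.0388 without VC replicate 1. Its 10 neighbours on chromosome 15 had a median log2 fold change of -0.25, with 1 called higher and 3 lower. Neighbours are drawn from the upper 50% of mean signal, and a fit of that part alone called 2263 of 9653 genes higher and 3439 lower. No 50-base stretch of its longest protein-coding transcript (1856 bases) was found in a transcript of another gene.

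IFI16 and IFI35, also higher, belong to the IFI group, of which 2 of 6 passed. IFI16, the sensor of nuclear and viral DNA, was 3.61, 3.64 and 3.60 in VC and 4.38, 4.78 and 4.70 in KO. VC libraries were nearly identical and every KO library lay above them, a 2.0-fold difference (log2 1.0, SE 0.12, adjusted p = 0.00963). IFI35, a leucine zipper protein that partners with NMI, was 1.39, 1.02 and 1.40 in VC and 2.13, 2.54 and 2.38 in KO. The groups again stood apart, by 2.12-fold (log2 1.08, SE 0.16, adjusted p = 0.0129). Both calls were kept with any 1 library left out, with highest adjusted p-values of 0.0452 for IFI16 and 0.0468 for IFI35. The longest protein-coding transcript of neither shared a 50-base stretch with another gene, and the 10 neighbours of each had medians of 0.0022 and -0.092.

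The other 4 IFI genes did not pass. IFI44, a cytoplasmic antiviral protein, differed by -0.42 (adjusted p = 0.0828, and 0.0199 without KO replicate 1), with KO below VC. IFI6, a small membrane protein that counters cell death, differed by 0.11, IFI27, among the strongest type I targets in blood and epithelia, by -0.13, and IFI44L by -0.07, with overlapping groups and adjusted p-values of 0.460 to 0.915.

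The OAS enzymes make 2′-5′ linked oligoadenylates that activate RNase L, and 1 of 4 passed. OAS1 was -2.41, -2.22 and -2.59 in VC and -3.52, -3.32 and -3.95 in KO. All KO libraries lay below all VC libraries, a 2.27-fold lower signal (log2 -1.18, SE 0.19, adjusted p = 0.0149). Without VC replicate 1 the adjusted p was 0.0556, and without any other library OAS1 kept its call. OASL, which lacks the enzyme activity and binds RIG-I, differed by -0.86 (adjusted p = 0.0740), with KO replicate 3 at -4.18 just inside the VC range. OAS3, the family member most tied to RNase L activation, differed by -0.22 (adjusted p = 0.233), with KO replicate 1 at 2.39 and the other KO libraries at 1.98 and 2.0. Without KO replicate 1 the OAS3 difference was -0.36 with an adjusted p of 0.0138. OAS2 had values in only 2 KO libraries and differed by 0.11 (adjusted p = 0.889).

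All 3 IFITM genes, which lie next to each other on chromosome 11, had lower values in each KO library than in each VC library, and 1 passed. IFITM3 was 7.89, 7.78 and 7.86 in VC and 7.59, 7.43 and 7.50 in KO. The groups did not overlap, but the step was small, a 1.26-fold lower signal (log2 -0.34, SE 0.077, adjusted p = 0.0295). Leaving out any library other than KO replicate 1 took its adjusted p above 0.05, up to 0.101. IFITM2 differed by -0.26 (adjusted p = 0.0910) and IFITM1 by -0.78 (adjusted p = 0.0585). Both passed with 1 added to the linear signal, at 0.0498 and 0.0481, IFITM2 also passed without KO replicate 1 (0.0278), and IFITM1 without KO replicate 2 (0.0201). With a trend and robust moderation in limma both passed as well (0.0364 and 0.0362), as did 41% of all genes. IFITM2 passed in the fit of the upper 50% of mean signal too (0.0345). The shares of 50-base stretches found in other genes were 42.3% for IFITM1, 15.8% for IFITM2 and 20.3% for IFITM3, so the 3 values are uncertain as separate measurements. Around the cluster, 10 neighbours outside the interferon set had a median change of -0.31, with 4 called lower and 0 higher in limma. A limma fit of the upper 50% of mean signal, from which neighbours are drawn, called 3439 of 9653 genes lower and 2263 higher. The part of the neighbours' change in the IFITM result was not tested. IRF7 lies on the same chromosome, where its own 10 neighbours, some shared with the IFITM cluster, had a median of -0.39 while IRF7 was higher in KO.

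In the IFIT family, whose proteins bind viral RNA that lacks the host cap structure, no gene passed. IFIT1 was -3.16, -3.50 and -2.87 in VC and -3.81, -5.09 and -4.16 in KO. The KO libraries lay below VC with KO replicate 2 lowest, a difference of -1.18 (SE 0.37) with an adjusted p of 0.0602 that was 0.0328 without KO replicate 1. IFIT2 differed by 0.54 (adjusted p = 0.190), and IFIT3 and IFIT5 each by 0.12 (0.713 and 0.255), with overlapping groups. IFIT1, IFIT2 and IFIT3, which assemble with each other, lie in 1 cluster on chromosome 10, and their values did not share a sign.

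Of the other effectors besides ISG20 none passed. EIF2AK2 (PKR), the kinase that stops translation when it meets double-stranded RNA, was 3.43, 3.47 and 3.44 in VC and 3.28, 3.01 and 3.19 in KO. KO lay below VC, with a difference of -0.29 and an adjusted p of 0.0619 (0.0287 if KO replicate 1 was left out, and 0.0294 after 1 was added to the linear signal). MX1, a dynamin-like GTPase that traps viral nucleocapsids and a usual readout of interferon exposure, was -1.92, -3.12 and -2.01 in VC and -1.98, -2.42 and -2.64 in KO. The groups overlapped and their means differed by -0.00023, with a 95% interval of -0.95 to 0.95. The related MX2 differed by -0.20 (adjusted p = 0.814).

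The remaining effectors gave overlapping groups or lacked values. SAMD9, which restricts poxviruses, differed by 0.09, its paralog SAMD9L by 0.06 and PLSCR1 by -0.07, with adjusted p-values of 0.390 to 0.780. TRIM22, an antiviral ubiquitin ligase, differed by 0.47, BST2 (tetherin), which holds budding virus at the cell surface, by -0.42, and RSAD2 by -0.05, each with 1 or 2 empty cells and adjusted p-values of 0.409 to 0.961. XAF1, a promoter of apoptosis, had 2 VC values (-8.34 and -8.43) and 1 KO value (-8.47) and was not tested.

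**Figure D4:**
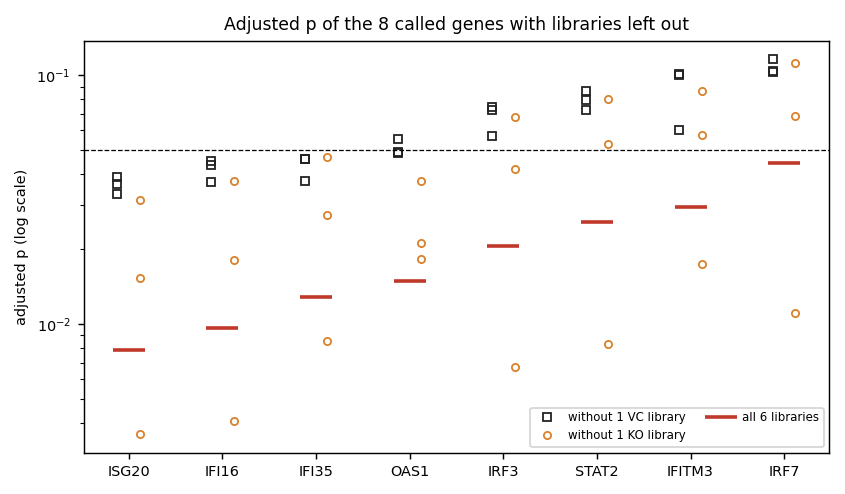
Adjusted p from limma (vertical axis, log scale) for the 8 interferon response genes called in KO against VC, with all 6 libraries (bars) and with 1 VC library (squares) or 1 KO library (circles) left out, and a dashed line at 0.05. ISG20, IFI16 and IFI35 stay under the line in all 6 fits, OAS1 in 5 of 6, and STAT2, IFITM3 and IRF7 only without KO replicate 1.

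The number of interferon genes called moved with single libraries. It was 3 without VC replicate 1 (7.69% of those tested, against 7.54% of all genes), 4 without VC replicate 2 (10.3% against 13.1%) and 4 without VC replicate 3 (10.5% against 6.57%). It was 13 without KO replicate 1 (35.1% against 47.0%), 6 without KO replicate 2 (16.7% against 23.6%) and 4 without KO replicate 3 (10.3% against 10.9%). KO replicate 1 was the KO library nearest to VC for ISG20, IFI16, IFI35, STAT2, IRF7, IRF3 and IFITM3. The 5 genes gained without KO replicate 1 were IFI44, EIF2AK2, IFIT1, IFITM2 and OAS3, and all 5 had a lower mean in KO, as did 77.7% of the 2683 genes gained over the whole table.

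The rest of the pathway was read from 101 listed genes, of which 83 could be tested and 30 passed (36.1%, background 32.9%), 19 higher and 11 lower. Their median log2 fold change was -0.046. Of the 12 interferon ligands listed, 11 had no value in any library, interferon beta and gamma among them. IFNE alone was tested, with a difference of -1.01 and an adjusted p of 0.423. Of 6 receptor subunits 4 passed (66.7%, background 32.9%), and they are named here after their values were seen. Both chains of the type II receptor were higher, IFNGR1 by 0.48 (adjusted p = 0.0201) and IFNGR2 by 0.48 (0.0175). IFNAR2, a chain of the type I receptor, was lower by a log2 change of -0.25 (0.0456), and of these 3 none kept its call in more than 3 of the 6 fits with a library left out.

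IFNLR1, the chain particular to the type III receptor, showed the largest fall in the list of pathway genes. Its signal was -2.88, -3.62 and -3.63 in VC and -6.20, -6.19 and -5.88 in KO. The groups were far apart, at a log2 fold change of -2.71 (SE 0.24, adjusted p = 0.00715), and the call held with any 1 library left out. The KO mean of -6.09 was near the mean level of DHX58 (-6.21, above 5.33% of genes). Depth is unknown, so the size of this fall is uncertain. None of the 3 receptor kinases tested passed, with differences from -0.05 to 0.15. Of 11 sensors, adaptors and kinases 4 were higher and 1 was lower, and of 10 other IRF and STAT family genes 3 were higher and 0 lower. Of 6 negative regulators 1 was lower, and of 46 further interferon-stimulated genes 10 were higher and 7 lower. Over all genes tested 13.1% were higher and 19.8% lower, and these short lists were not tested as sets.

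Among the genes of the list that passed, the 6 with the largest rises spanned several roles. APOL6, an apolipoprotein L that promotes cell death, was -1.36, -1.81 and -1.60 in VC and 0.42, 0.74 and 0.01 in KO. SLFN5, a Schlafen family protein, was 1.33, 1.38 and 1.30 in VC and 2.73, 3.40 and 2.99 in KO. STAT5A, which mainly serves cytokine and hormone receptors, was -3.29, -3.01 and -3.40 in VC and -1.64, -1.17 and -1.94 in KO. In all 3 the groups stood apart, with log2 fold changes of 1.98, 1.70 and 1.65 and adjusted p-values of 0.00891, 0.00847 and 0.0113. TMEM173 (STING), the adaptor that relays the sensing of cytoplasmic DNA, rose by 1.07 (0.0103), and it kept its call with any library left out, as did APOL6, SLFN5 and STAT5A. TRIM5, a restriction factor for retroviral capsids, and WARS, the tryptophan tRNA synthetase, rose by 1.06 (0.0282) and 0.95 (0.0443), and both lost the call without any library other than KO replicate 1. APOL6 lies on chromosome 22, where the median log2 fold change of the more highly expressed genes was 0.31, and WARS lies on chromosome 14, where the median was -0.35.

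Among the genes that passed, the largest falls after IFNLR1 were those of PARP10, LGALS3BP, SAMHD1, ZC3HAV1 and IFI30. PARP10 is a mono-ADP-ribosyltransferase (log2 -1.34, adjusted p = 0.0315), LGALS3BP a secreted galectin-binding glycoprotein (-0.94, 0.00963), and SAMHD1 a hydrolase of deoxynucleotides that starves reverse transcription (-0.86, 0.0148). ZC3HAV1 (ZAP) binds CpG-rich viral RNA (-0.81, 0.0442), and IFI30 is a lysosomal thiol reductase (-0.79, 0.0175). LGALS3BP kept its call with any library left out, SAMHD1 in 4 of the 6 fits, PARP10 in 3, and ZC3HAV1 and IFI30 in 2 each. PARP10 lies on chromosome 8 and SAMHD1 on chromosome 20, where the medians of the more highly expressed genes were -0.27 and -0.25. On the chromosomes of LGALS3BP, ZC3HAV1 and IFI30 these medians were -0.11, -0.15 and -0.010. Without 1 VC library 8 to 11 genes of the list were called (9.64% to 13.4%, against 6.57% to 13.1% of all genes). Without KO replicates 1, 2 and 3 the counts were 46, 24 and 13 (57.5%, 30% and 16%, against 47%, 23.6% and 10.9% of all genes).

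**Figure D5:**
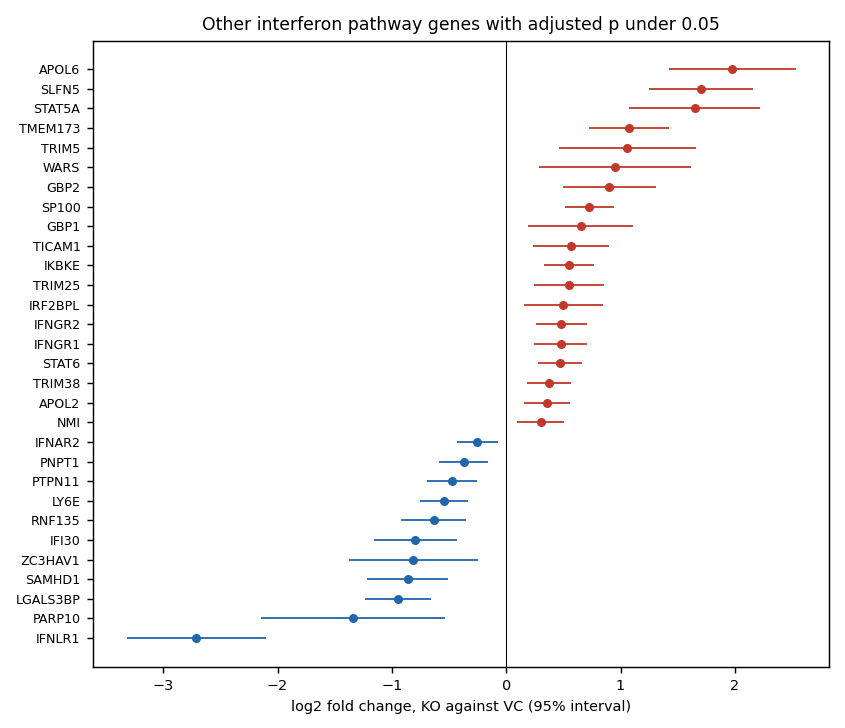
Log2 fold change of KO against VC with its 95% interval (horizontal axis) for the 30 other interferon pathway genes with an adjusted p under 0.05. APOL6 is highest at 1.98 and IFNLR1 lowest at -2.71, with 19 genes above 0 and 11 below.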

How the data were processed

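RNA from 3 VC and 3 KO samples of 143B cells was sequenced after a stranded mRNA library preparation. The submitters' processing notes name CASAVA, STAR and Partek and the build GRCh38.p13, the methods also name CLC Genomics Server, and the annotation and tool versions are not given in the sources used here. The deposited values are log2 signals per gene, quantile-normalized between libraries by the authors. The linear unit and the read depth are not stated, and some cells are empty.

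Here KO was compared with VC by limma 3.58.1 in R 4.3.3 on the log2 signals as deposited, for the 19306 genes with at least 2 VC and 2 KO values, two-sided, with Benjamini-Hochberg adjustment and a threshold of 0.05. Empty cells were neither filled nor counted as 0, and a gene with empty cells was fitted on its remaining libraries. The fit was tested on simulated data. The paper's methods state that 2 colonies were expanded after the deletion had been checked, so the 3 KO samples came from at most 2 colonies. No study source states that the 3 samples of a group came from separate clones. The p-values therefore measure the spread between these samples and not that between independent clones. All samples were grouped by their labels. Values in each library are given for the interferon genes that passed the threshold or had a log2 fold change of 1 or more in size. They are also given for IFIH1, ISG15, EIF2AK2, MX1 and XAF1, and in the pathway list for IFNLR1, APOL6, SLFN5 and STAT5A. Of the other pathway genes that passed, the 6 with the largest change in each direction and the receptor chains are named. The interferon genes and lists were chosen with earlier results of these data known. Promoters came from RefSeq (GRCh38.p14), where DDX58 was matched under its current symbol, and lengths and shared 50-base stretches, the latter for the longest protein-coding transcript of each gene, came from GENCODE. Neighbours are the 5 nearest genes on each side in the upper 50% of mean signal that are in no interferon list. Alternatives were centring each library on its median over genes with all 6 values, 1 added to the linear signal and the upper 50% of mean signal. The others were genes with all 6 values, a trend with robust moderation, a replicate block and leaving out each library.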

Additional observations from a re-analysis of the deposited data

How the results depend on the processing

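With a library left out the number of interferon genes called ranged from 3 to 13 (8 with all libraries), that of other pathway genes from 8 to 46 (30), that of all genes from 1223 to 8669 (6354), and the median log2 fold change of the interferon genes from -0.047 to 0.11 (0.079), turning negative without VC replicate 3 (-0.011) and without KO replicate 1 (-0.047). That median was 0.16 after centring on library medians over genes with all 6 values, which moved the median of all genes by 0.083. With 1 added to the linear signal the interferon median was 0.0023, and the median of all genes moved by 0.10. The causes were not tested. Both scalings, the trend with robust moderation and the restriction to genes with all 6 values kept the 8 interferon genes called and their signs. These fits called 11, 12, 11 and 8 in that order (27.5%, 30%, 27.5% and 22.9% of those tested). The shares of all genes were 32.3%, 40.3%, 41% and 38.3%. The upper 50% filter called 10 of 18 (55.6%, against 59.1% of all genes) and removed OAS1 and ISG20 by its construction.

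Samples of the 2 groups share replicate numbers. Deviations of same-numbered libraries from their group means correlated at 0.023, 0.0051 and -0.0074, and those of other pairs at -0.030 to 0.031. Not every library correlated best with its own number. These values showed no pairing by number. The deviations within a group sum to 0, so they cannot settle whether samples were handled in pairs. With a replicate block 3 interferon genes (ISG20, IFI16 and OAS1, 7.69% of those tested), 8 other pathway genes (9.76%) and 1740 of all genes (9.16%) were called. Depth is unknown, so no counting error could be given for low genes such as XAF1 or OAS2.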
